A study of Mus musculus with 8 samples.

Results

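The genes described are those of the mitochondrial ribosomal proteins, taken as every row of the deposited FPKM table whose gene symbol starts with Mrpl or Mrps followed by a number. The rule found 79 of the 11783 rows, 50 with an Mrpl symbol (large subunit) and 29 with an Mrps symbol (small subunit), and used no measured value. They comprised 77 genes and 2 processed pseudogenes, Mrps36-ps1 and Mrpl23-ps1. RNA-seq was done on granulosa cells, the somatic cells that surround the oocyte, dissociated from C57BL/6 mouse ovaries, with 4 libraries from postnatal day 4 (PND4) and 4 from postnatal day 1 (PND1). The series is framed around the activation of primordial follicles, the first step by which resting follicles begin to grow. The cells carried no stated genotype or treatment beyond strain and age. The labels do not tie a library to an animal or litter, so the spread that the p-values measure is that between the libraries and may be technical.

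Mitochondria keep their own ribosome, the mitoribosome, which makes the small set of respiratory chain and ATP synthase subunits encoded in mitochondrial DNA. Its 2 rRNAs are transcribed in the mitochondrion, whereas its proteins are encoded in the nucleus, made in the cytosol and imported. The small subunit holds the decoding site and binds the mRNA, and the large subunit joins the amino acids and releases the growing chain at the inner membrane. Some of its proteins have bacterial counterparts and the others arose in mitochondria. Oocytes and the granulosa cells around them draw on oxidative metabolism to different degrees, and in humans variants in several mitoribosomal genes, MRPS22 among them, have been linked to ovarian insufficiency.

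FPKM is a level scaled to transcript length and to the number of mapped fragments, and the read depth behind it is unknown. Totals over the listed genes ran from 443333 to 505035 per library. The libraries numbered 1 of both ages stood apart, with 1097 genes at exactly 0 in that of PND4 and 1234 in that of PND1, against 222 to 858 in the other 6 libraries. The granulosa markers Foxl2 (17.5 ± 5.85 FPKM at PND4 and 15.9 ± 3.87 FPKM at PND1) and Kitl (67.7 ± 4.52 FPKM at PND4 and 71.5 ± 13.2 FPKM at PND1) were present at both ages (SD, n = 4 each). Of 12 listed granulosa markers the median level was 16.9 ± 4.28 FPKM at PND4 and 16.3 ± 1.56 FPKM at PND1. Their sum, 1068 ± 115 FPKM at PND4 and 1123 ± 174 FPKM at PND1, was mostly that of the keratins Krt18 (487 ± 72.9 FPKM at PND4 and 500 ± 81.8 FPKM at PND1) and Krt8 (355 ± 57.8 FPKM at PND4 and 390.1 ± 83.1 FPKM at PND1). Markers of other cell types were also present. The summed level of 15 listed oocyte markers ran from 48.1 to 321 FPKM at PND4 and from 18.4 to 125 FPKM at PND1.

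All 79 members were above 0 in all 8 libraries and passed the filter used for testing, at least 1 FPKM in at least 4 libraries. Their means over the 8 libraries ran from 2.55 FPKM (Mrps36-ps1) to 58.6 FPKM (Mrps15), a 23.0-fold range, or 11.2-fold without the pseudogenes. The median member lay at the 68.2 percentile of the 10756 tested genes. Of the 79, 16 averaged under 10 FPKM, 23 above 30 FPKM and 4 above 50 FPKM. The Mrpl genes had a median mean level of 23.9 FPKM and the Mrps genes one of 14.1 FPKM. The FPKM of genes for proteins of a single ribosome were thus quite unequal. How far this follows transcript number was not tested, since the transcript lengths used and the split of shared reads are not stated.

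**Figure D1:**
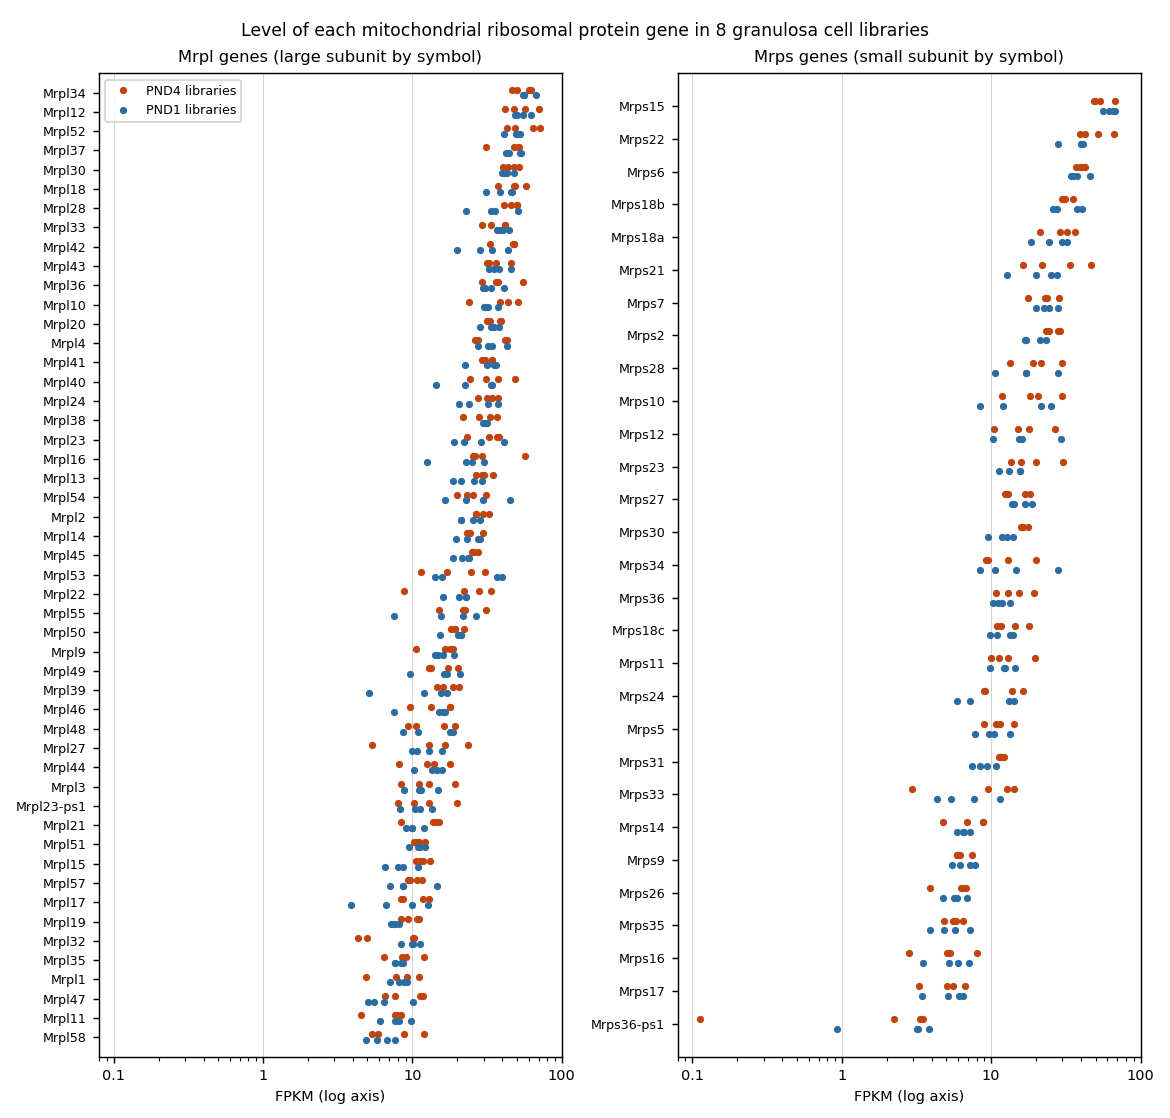
FPKM on a log axis (x) of each member (y, ordered by mean level within each subunit) in the 4 PND4 libraries (orange) and the 4 PND1 libraries (blue). The points of most genes intermix between the ages, and the spread between genes, from 2.55 to 58.6 FPKM in mean level, is much wider than any separation of the colours.

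The 4 members with the highest mean levels were a small-subunit gene and 3 large-subunit genes. Mrps15, whose bacterial counterpart binds the rRNA early in assembly of the small subunit, had 67.1, 49.7, 49.2 and 53.8 FPKM in the PND4 libraries, against 65.2, 67.4, 55.7 and 61.1 FPKM in the PND1 libraries (log2 difference -0.19 with SE 0.14, unadjusted p = 0.194, limma adjusted p = 0.835). Mrpl34, counterpart of a small basic bacterial protein of the large subunit, had 61.96, 50.5, 46.6 and 60.1 FPKM in the PND4 libraries, against 55.7, 56.2, 66.8 and 54.7 FPKM in the PND1 libraries (log2 difference -0.094 with SE 0.14, unadjusted p = 0.499, limma adjusted p = 0.913). Mrpl12, which forms the stalk that recruits translation factors, had 47.5, 56.7, 41.8 and 70.2 FPKM in the PND4 libraries, against 55.4, 50.4, 61.9 and 48.3 FPKM in the PND1 libraries (log2 difference -0.019 with SE 0.17, unadjusted p = 0.912, limma adjusted p = 0.987). The ages overlapped for these 3 genes, and the level of Mrpl12 within an age differed by more than its means did between ages. Mrpl52, a mitochondria-specific protein, followed with 56.8 ± 13.3 FPKM at PND4 and 48.6 ± 5.05 FPKM at PND1 (SD, n = 4 each; log2 difference 0.20). Mrpl37, also mitochondria-specific, and Mrpl30, counterpart of bacterial L30, completed the 5 highest large-subunit genes at 46.9 and 44.4 FPKM over all libraries (log2 differences -0.10 and 0.10). After Mrps15, the highest small-subunit genes were Mrps22, Mrps6, Mrps18b and Mrps18a. Among the 5 highest large-subunit genes, neighbours in the order of level overlapped over the libraries.

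The 3 lowest large-subunit genes were Mrpl58 (8.03 ± 3.07 FPKM at PND4 and 6.30 ± 1.21 FPKM at PND1), Mrpl11 (7.14 ± 1.77 FPKM at PND4 and 7.91 ± 1.54 FPKM at PND1) and Mrpl47 (9.30 ± 2.58 FPKM at PND4 and 6.78 ± 2.25 FPKM at PND1; SD, n = 4 each). Mrpl58 is a peptidyl-tRNA hydrolase built into the ribosome that can rescue stalled complexes, Mrpl11 lies at the base of the factor-binding stalk, and Mrpl47 is the counterpart of bacterial L29 at the exit of the peptide tunnel. The lowest small-subunit genes were Mrps17 and Mrps16, both with bacterial counterparts that bind rRNA, at 5.22 and 5.38 FPKM over all libraries (log2 differences -0.035 and -0.061). The pseudogene Mrps36-ps1 had 0.113, 3.51, 3.34 and 2.25 FPKM in the PND4 libraries, against 0.932, 3.21, 3.22 and 3.83 FPKM in the PND1 libraries. It was lowest in the libraries numbered 1 of both ages (log2 difference -0.31, limma adjusted p = 0.933). How reads were split between a processed pseudogene and its parent is not stated, so the levels of Mrps36 (14.7 ± 3.73 FPKM at PND4 and 11.6 ± 1.38 FPKM at PND1) and Mrpl23 (32.6 ± 6.72 FPKM at PND4 and 27.8 ± 9.84 FPKM at PND1) are uncertain too.

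The comparison of ages asked whether these genes differed between PND4, when follicle growth has begun, and PND1. None passed the test. Of the 79 members, 0 passed an adjusted p of 0.05 with limma on log2(FPKM + 1), and the smallest adjusted p of a member was 0.805. Over all 10756 tested genes the same test called 1 gene, a percent called of 0.0093. At an unadjusted p under 0.05, 3 members were higher at PND4 (3.8%, against 4.06% of all tested genes) and 0 were lower (against 1.84%), so the share of members at that level was close to that of all genes. By the q-values of the authors' deposited table, 0 members and 0 genes were under 0.05, and the smallest q of a member there was 0.742. The p-values of that deposited table were under 0.05 for 7 of the 79 members and for 772 genes. The members were Mrpl45, Mrps2, Mrps30, Mrps31, Mrpl15, Mrpl19 and Mrpl11, and the fold of Mrpl11 had the direction opposite to that of the other 6. That fold is PND1 over PND4, as read from the values, and lay above 1 for Mrpl11. No share over all genes was computed for the p-values of that table. The count of 7 is therefore not read as a result about the members.

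Differences were small and mostly on the PND4 side, as they were for the table as a whole. The log2 difference, PND4 minus PND1, was above 0 for 55 of 79 members (69.6%), beside 60.3% of all tested genes. Its median was 0.11 for the members and 0.078 for all tested genes. With median-of-ratios scaling both medians were smaller, 0.039 for the members and 0.0086 for all tested genes, and with upper-quartile scaling 0.0328 and 0.0027. The members' differences ran from -0.46 (Mrpl32) to 0.56 (Mrpl16). They lay within 0.25 of 0 for 51 members, above 0.5 for 3 and below -0.5 for 0. The 95% interval of a member's log2 difference reached a median of 0.50 to either side, wider than most of the differences, and it excluded 0 for 3 members.

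**Figure D2:**
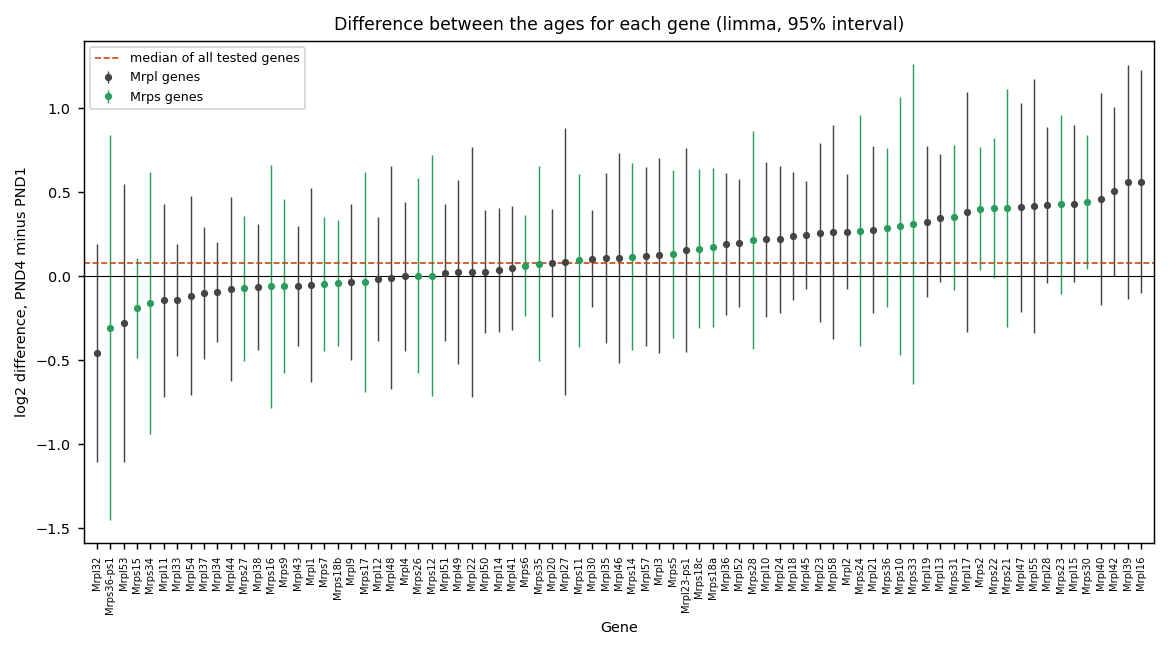
Log2 difference, PND4 minus PND1, on log2(FPKM + 1) (y) of each of the 79 members (x, ordered by difference), with the 95% interval from limma as a bar, Mrpl genes in grey and Mrps genes in green. The dashed line marks the median of all tested genes (0.078). The points run from -0.46 to 0.56, 55 of 79 lie above 0, and all but 3 intervals cross 0.

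The 3 members with an unadjusted p under 0.05 were Mrps30, Mrps2 and Mrpl42, and none passed adjustment. Mrps30, which despite its symbol sits in the large subunit, had 17.7, 15.9, 16.4 and 16.03 FPKM in the PND4 libraries, against 9.47, 11.9, 13.9 and 12.7 FPKM in the PND1 libraries (log2 difference 0.44 with SE 0.18, unadjusted p = 0.0325, limma adjusted p = 0.805). Each PND4 value was above each PND1 value. Mrps30 lies on chromosome 13 (GRCm38) on the minus strand and shares 623 exonic bases with B430218F22Rik on the opposite strand. No source used here tells whether the counting used strand, and without it the reads of the pair cannot be told apart. B430218F22Rik had 2.59, 9.49, 5.81 and 7.52 FPKM in the PND4 libraries, against 4.51, 4.66, 6.03 and 6.53 FPKM in the PND1 libraries, and its ages overlapped.

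Mrps2, counterpart of bacterial S2 and placed near the path of the mRNA, had 24.4, 27.9, 28.9 and 23.4 FPKM in the PND4 libraries, against 16.9, 17.01, 21.2 and 23.5 FPKM in the PND1 libraries (log2 difference 0.40 with SE 0.17, unadjusted p = 0.0343, limma adjusted p = 0.805). Of the PND1 values only that of replicate 4 reached the lowest PND4 value, so the ages just overlapped. Mrpl42, a mitochondria-specific protein of the large subunit, had 33.1, 48.1, 47.1 and 47.8 FPKM in the PND4 libraries, against 19.9, 34.3, 28.4 and 43.9 FPKM in the PND1 libraries (log2 difference 0.50 with SE 0.23, unadjusted p = 0.0486, limma adjusted p = 0.805). PND4 replicate 1 lay within the PND1 range, and the other 3 PND4 libraries lay above it. Without PND1 replicate 1 its log2 difference was 0.31. With median-of-ratios or upper-quartile scaling, 0 members had an unadjusted p under 0.05. Leaving out a single library moved that count between 1 and 5, the lowest without PND1 replicate 1, PND4 replicate 2 or PND4 replicate 3.

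In 4 members the libraries of the ages did not overlap, with PND4 higher (5.06%, beside 3.16% of all tested genes), and in 0 with PND4 lower (beside 1.08%). They were Mrps30, Mrpl45, Mrps31 and Mrpl19, of which Mrps31 and Mrpl19 were named after their values were seen. Mrpl45, which lies at the exit of the peptide tunnel and tethers the ribosome to the inner membrane, had 25.5, 24.9, 26.03 and 27.6 FPKM in the PND4 libraries, against 18.6, 21.4, 23.7 and 23.8 FPKM in the PND1 libraries (log2 difference 0.24 with SE 0.15, unadjusted p = 0.124, limma adjusted p = 0.807). The 4 PND4 values were close together, and the highest PND1 value was just below them. Mrps31, a mitochondria-specific protein of the small subunit, had 11.7, 11.2, 11.5 and 12.2 FPKM in the PND4 libraries, against 9.39, 8.39, 7.47 and 10.8 FPKM in the PND1 libraries (log2 difference 0.35 with SE 0.20, unadjusted p = 0.103, limma adjusted p = 0.805). Mrpl19, counterpart of bacterial L19, which contacts the small subunit, had 11.02, 8.41, 9.28 and 10.7 FPKM in the PND4 libraries, against 7.63, 7.15, 8.17 and 7.59 FPKM in the PND1 libraries (log2 difference 0.32 with SE 0.20, unadjusted p = 0.142, limma adjusted p = 0.812). Mrpl19 shares 1962 exonic bases with Gcfc2 on the opposite strand, a gene of lower level at 2.75 ± 1.90 FPKM at PND4 and 3.27 ± 1.41 FPKM at PND1 (SD, n = 4 each).

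**Figure D3:**
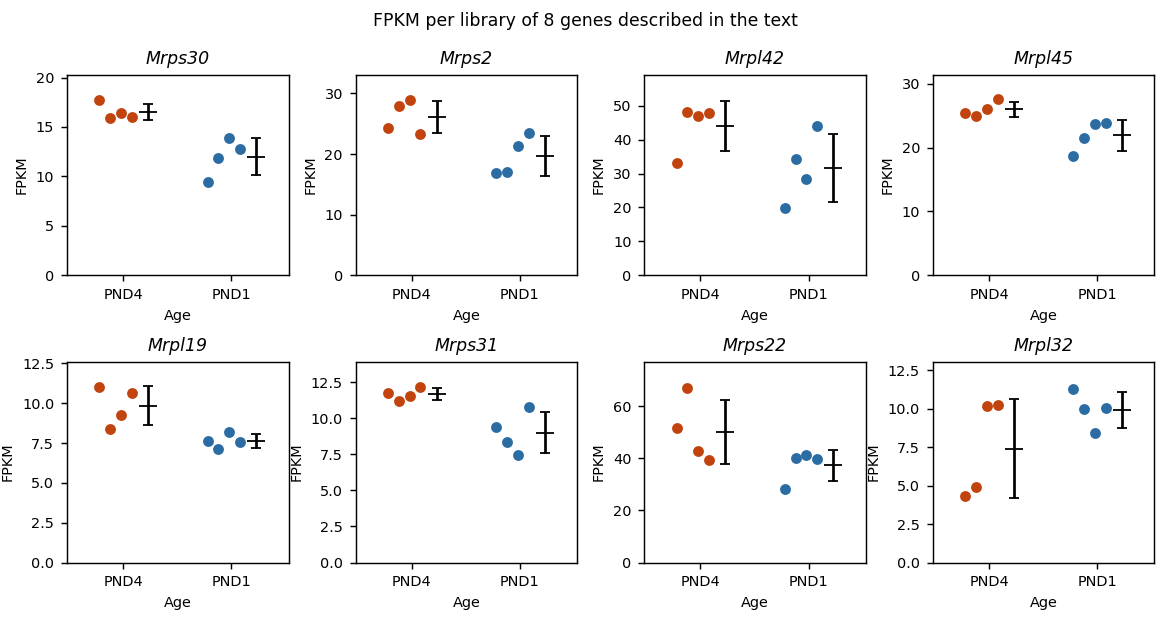
FPKM (y, from 0) of 8 members in each PND4 library (orange, left) and PND1 library (blue, right), with the mean and SD in black (n = 4 each). The ages do not overlap for Mrps30, Mrpl45, Mrpl19 and Mrps31, just overlap for Mrps2, and overlap for Mrpl42, Mrps22 and Mrpl32.

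The 2 largest positive differences were those of Mrpl16 and Mrpl39. Mrpl16, counterpart of bacterial L16 near the tRNA sites, had 56.8, 26.1, 25.6 and 29.3 FPKM in the PND4 libraries, against 12.6, 30.3, 25.2 and 22.8 FPKM in the PND1 libraries (log2 difference 0.56 with SE 0.30, unadjusted p = 0.0893, limma adjusted p = 0.805). PND4 replicate 1 was far above the other PND4 values, and without it the log2 difference was 0.30, or 0.32 without PND1 replicate 1, the lowest. Mrpl39, a mitochondria-specific protein, had 14.6, 18.8, 16.03 and 20.4 FPKM in the PND4 libraries, against 5.10, 12.03, 15.7 and 16.9 FPKM in the PND1 libraries (log2 difference 0.56, limma adjusted p = 0.805). PND1 replicate 1 was far below the others, and without it the log2 difference was 0.22. Mrpl40 (0.46), a mitochondria-specific protein of the central protuberance, and Mrpl15 (0.43), counterpart of bacterial L15, completed the 6 largest positive differences. The difference of Mrpl40 was 0.21 without PND1 replicate 3 and 0.30 without PND4 replicate 2. Mrpl28 (0.42) and Mrpl36 (0.19), both with bacterial counterparts and named after their values were seen, had overlapping ages as well. Mrpl28 was at 0.23 without PND1 replicate 1, and Mrpl36 at 0.028 without PND4 replicate 3 and 0.32 without PND4 replicate 1.

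The largest negative difference was that of Mrpl32, whose precursor must be cut by the m-AAA protease before it joins the ribosome. It had 4.30, 4.94, 10.2 and 10.2 FPKM in the PND4 libraries, against 11.3, 9.98, 8.43 and 10.05 FPKM in the PND1 libraries (log2 difference -0.46 with SE 0.30, unadjusted p = 0.1502, limma adjusted p = 0.816). PND4 replicates 1 and 2 were low, and replicates 3 and 4 lay within the PND1 range. Without PND4 replicate 1 the log2 difference was -0.26. Afg3l2, which encodes an m-AAA subunit, had 22.1 ± 2.45 FPKM at PND4 and 23.8 ± 6.51 FPKM at PND1 (SD, n = 4 each; log2 difference -0.075). After Mrpl32 and Mrps36-ps1 came Mrpl53 (-0.28), Mrps15 (-0.19), Mrps34 (-0.16) and Mrpl11 (-0.14), none with an unadjusted p under 0.05. Mrps34 shares 763 exonic bases with Nme3 on the same strand and 1309 with Mapk8ip3 on the opposite strand. Mrpl53 shares 695 exonic bases with Gm42688 on the same strand. How reads were split between such genes is not stated. Mrpl53 ran from 11.5 to 30.5 FPKM at PND4 and from 14.2 to 39.8 FPKM at PND1, and its libraries differed widely within each age. Its log2 difference was -0.0395 without PND4 replicate 4 and -0.48 without PND4 replicate 1. When PND1 replicates 1, 2, 3 and 4 were left out in turn it was -0.085, -0.045, -0.47 and -0.52.

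Members of known role within the ribosome had differences of either sign, none past the test. Of the stalk and its base, Mrpl12 had a log2 difference of -0.019, Mrpl10, which anchors Mrpl12, one of 0.22 and Mrpl11 one of -0.14. Mrpl44, a large-subunit protein related to RNase III, had 13.2 ± 4.05 FPKM at PND4 and 13.6 ± 2.44 FPKM at PND1 (log2 difference -0.075). Mrps12, which lies at the decoding site, had 17.98, 26.6, 10.4 and 15.1 FPKM in the PND4 libraries, against 29.2, 10.4, 15.3 and 16.0 FPKM in the PND1 libraries. Its values varied more within each age than between the means (log2 difference 0.0025, and below 0 with median-of-ratios, upper-quartile and nuclear-total scaling; limma adjusted p = 0.999). Mrps22, a mitochondria-specific small-subunit protein whose human gene is linked to ovarian dysgenesis, had 51.6, 66.8, 42.7 and 39.4 FPKM in the PND4 libraries, against 28.1, 39.9, 41.1 and 39.7 FPKM in the PND1 libraries (log2 difference 0.41 with SE 0.19, unadjusted p = 0.0550, limma adjusted p = 0.805). PND4 replicates 1, 2 and 3 lay above all PND1 values and replicate 4 lay among them, and PND1 replicate 1 was the lowest. Without PND4 replicate 2, the highest, the log2 difference was 0.26. Mrps6, counterpart of bacterial S6, had 39.8 ± 2.38 FPKM at PND4 and 38.3 ± 5.21 FPKM at PND1 (log2 difference 0.062, and below 0 with median-of-ratios and upper-quartile scaling).

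The 3 paralogs of bacterial S18 differed in level in the order Mrps18b, Mrps18a and Mrps18c. Mrps18b, in the small subunit, had 31.7 ± 2.46 FPKM at PND4 and 33.1 ± 7.29 FPKM at PND1. Mrps18a, which sits in the large subunit, had 29.7 ± 6.39 FPKM at PND4 and 26.3 ± 6.21 FPKM at PND1, and Mrps18c, in the small subunit at the place of bacterial S18, had 13.7 ± 3.21 FPKM at PND4 and 12.03 ± 1.93 FPKM at PND1 (SD, n = 4 each). Mrps18a and Mrps18b did not differ beyond their spread, and Mrps18c was lower than both in all 8 libraries. Their log2 differences between ages were -0.039, 0.17 and 0.16. Mrps36, now assigned to the 2-oxoglutarate dehydrogenase complex rather than the ribosome, had a log2 difference of 0.29.

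The 2 subunits had close medians, and their difference was not tested. The median log2 difference was 0.11 for the 50 Mrpl genes (35 above 0) and 0.12 for the 29 Mrps genes (20 above 0). By place in the known structure, where Mrps30 and Mrps18a count as large, the medians were 0.11 for 51 large-subunit genes and 0.095 for 25 small-subunit genes. Large-subunit proteins with a bacterial counterpart had a median of 0.16 (30 genes) and mitochondria-specific ones 0.048 (21 genes). In the small subunit these were 0.11 (16 genes) and 0.074 (9 genes). The ratio of summed Mrpl to summed Mrps FPKM, which does not depend on how a library was scaled, was 2.48, 2.21, 2.50 and 2.46 in the PND4 libraries and 2.34, 2.42, 2.49 and 2.45 in the PND1 libraries. The ages overlapped, with means of 2.41 ± 0.134 at PND4 and 2.43 ± 0.0613 at PND1 (SD, n = 4 each), and PND4 replicate 2 was the lowest. By structure the ratio was 2.81 ± 0.167 at PND4 and 2.79 ± 0.0557 at PND1.

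Summed over the members, mean FPKM was higher at PND4, and the size of the difference and the separation of the ages depended on the scaling. The sum of all 79 was 1810, 1851, 1766 and 1838 FPKM in the PND4 libraries, against 1616, 1701, 1599.8 and 1693 FPKM in the PND1 libraries. The ages did not overlap, and the mean was 9.91% higher at PND4. The sum of the Mrpl genes was 9.67% higher (1283 ± 19.9 FPKM at PND4 and 1170 ± 38.3 FPKM at PND1) and that of the Mrps genes 10.5% higher (533 ± 30.5 FPKM at PND4 and 483 ± 16.8 FPKM at PND1; SD, n = 4 each), each without overlap. Scaled by median-of-ratios factors, the sum of all 79 was 1972, 1739, 1668 and 1705 in the PND4 libraries, against 1817, 1786, 1563 and 1637 in the PND1 libraries, 4.14% higher in mean with overlapping ages. With upper-quartile factors it was 3.67% higher, also with overlap. Medians on log2(FPKM + 1) were also set against the median of all tested genes in each library. The median Mrps gene stood 0.50 to 0.63 above it at PND4 and 0.29 to 0.49 above it at PND1. For the Mrpl genes and all 79 the ages overlapped, as they did for the 25 small-subunit genes by structure. The median of those 25 was 3.94 in PND4 replicate 3, beside 3.50 for all tested genes. In PND1 replicate 2 these were 3.84 and 3.34. Before this step the Mrps medians overlapped too, at 13.04 to 16.4 FPKM at PND4 and 11.4 to 13.2 FPKM at PND1.

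**Figure D4:**
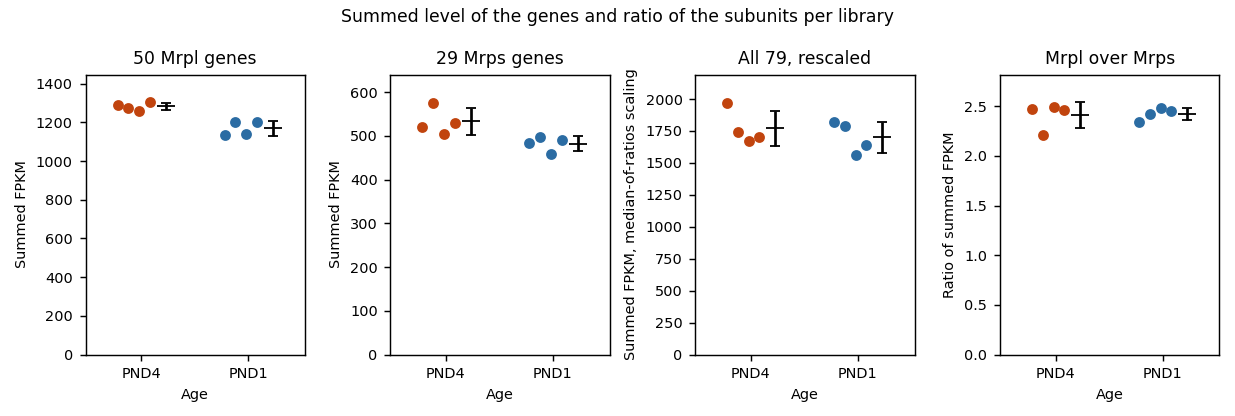
Summed FPKM of the 50 Mrpl genes and of the 29 Mrps genes, the sum of all 79 after median-of-ratios scaling, and the ratio of summed Mrpl to summed Mrps FPKM (y, each from 0), per PND4 library (orange, left) and PND1 library (blue, right), with mean and SD (n = 4 each). The FPKM sums of both subunits separate the ages, whereas the rescaled sum and the ratio overlap.

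FPKM is a share of a library, and the largest items in that share were lower at PND4 in most libraries. The 13 mRNAs encoded in mitochondrial DNA took 24.8, 19.6, 18.5 and 19.1% of all listed FPKM in the PND4 libraries, against 24.2, 26.1, 22.2 and 25.7% in the PND1 libraries. PND4 replicate 1 lay within the PND1 range and the other 3 below it. Their log2 differences had a median of -0.42 and were below 0 for 12 of 13, where 60.3% of all tested genes were above 0. None passed adjustment. At an unadjusted p under 0.05, where 1.84% of all tested genes were lower at PND4, 7 were lower (mt-Co1, mt-Co2, mt-Co3, mt-Nd4, mt-Nd4l, mt-Nd5 and mt-Nd6). Of the 2 highest, mt-Co1, a subunit of complex IV, had 17952 ± 1651 FPKM at PND4 and 24512 ± 3265 FPKM at PND1 (SD, n = 4 each; limma adjusted p = 0.740), and mt-Nd1, a subunit of complex I, had 15591 ± 2253 FPKM at PND4 and 17698 ± 2322 FPKM at PND1. Scaled to the summed FPKM of nuclear genes alone, a setting chosen after seeing the data, the members' sum was 8.72% higher at PND4 without overlap. The part of the mitochondrial mRNAs in the difference of that sum was not tested. The members took 0.395% ± 0.0220 of all listed FPKM at PND4 and 0.341% ± 0.0144 at PND1 (SD, n = 4 each). The 2 mitochondrial rRNAs, mt-Rnr1 and mt-Rnr2, which form the core of the same ribosome, summed to 3575 ± 606 FPKM at PND4 and 4284 ± 1204 FPKM at PND1, with overlap.

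**Figure D5:**
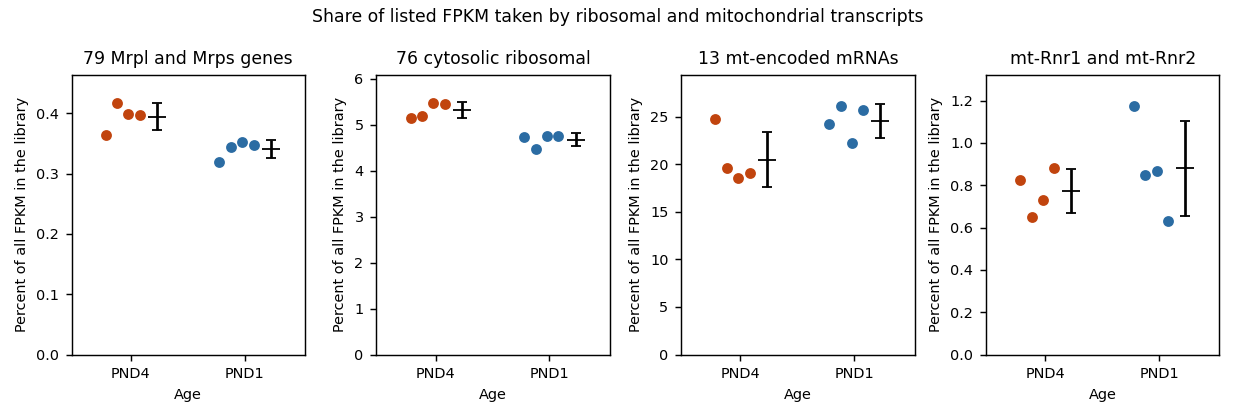
Percent of all listed FPKM (y, each from 0) taken by the 79 members, 76 cytosolic ribosomal protein genes, the 13 mRNAs encoded in mitochondrial DNA and the 2 mitochondrial rRNAs, per PND4 library (orange, left) and PND1 library (blue, right), with mean and SD (n = 4 each). The shares of both ribosomal protein groups are higher at PND4 without overlap, and that of the mitochondrially encoded mRNAs is lower in 3 of 4 PND4 libraries.

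The proteins of the cytosolic ribosome gave a median log2 difference equal to that of the members at 2 decimals, 0.11, with 69 of 76 genes above 0 (beside 60.3% of all tested genes) and 0 past adjustment. At an unadjusted p under 0.05, 9 of the 76 were higher at PND4 (beside 4.06% of all tested genes) and 0 lower, and in 7 the ages did not overlap with PND4 higher (beside 3.16%). Whether these genes differ from the members in this was not tested. Their summed FPKM was 13.5 ± 0.728 times that of the members at PND4 and 13.7 ± 0.780 times at PND1 (SD, n = 4 each), and the ages overlapped.

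The other genes of mitochondrial translation had small medians too, and 0 genes of these lists passed adjustment. Mitoribosomal proteins without an Mrp symbol had a median log2 difference of 0.098 over 5 genes, 4 above 0. The highest were Chchd1 (42.98 ± 9.46 FPKM at PND4 and 31.7 ± 6.55 FPKM at PND1; log2 difference 0.42) and Gadd45gip1 (27.9 ± 4.25 FPKM at PND4 and 27.1 ± 3.66 FPKM at PND1; log2 difference 0.039). Translation factors had a median of 0.15 over 15 genes, 10 above 0, led in level by Tufm, the elongation factor that delivers tRNAs, at 45.8 ± 4.77 FPKM at PND4 and 48.3 ± 8.42 FPKM at PND1, and Oxa1l, the insertase that receives the new chains at the inner membrane, at 24.4 ± 2.96 FPKM at PND4 and 21.3 ± 3.29 FPKM at PND1. Assembly and rRNA modification factors had a median of 0.11 over 25 tested genes, 15 above 0.

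Within the assembly factors, 2 of 25 tested genes had an unadjusted p under 0.05, 1 on each side, where 4.06% of all tested genes were higher and 1.84% lower at that level. Neither passed adjustment. Noa1, a GTPase of small-subunit assembly, had 20.03, 17.8, 14.2 and 17.1 FPKM in the PND4 libraries, against 5.88, 9.91, 9.20 and 13.8 FPKM in the PND1 libraries (log2 difference 0.82 with SE 0.25, unadjusted p = 0.00671, limma adjusted p = 0.740). Mpv17l2, an inner-membrane protein linked to ribosome assembly, had 8.07, 18.4, 17.03 and 14.02 FPKM in the PND4 libraries, against 33.3, 22.3, 21.96 and 20.5 FPKM in the PND1 libraries (log2 difference -0.76 with SE 0.26, unadjusted p = 0.0132, limma adjusted p = 0.740). The ages did not overlap in either gene, with PND4 higher for Noa1 and lower for Mpv17l2. The highest of the list were Rbfa, which matures the small-subunit rRNA (28.5 ± 7.02 FPKM at PND4 and 22.2 ± 2.82 FPKM at PND1), and Afg3l2. Regulators of nuclear genes for mitochondria had a median of 0.19 over 12 tested genes, 8 above 0, and the highest in level were Myc (40.8 ± 8.66 FPKM at PND4 and 42.9 ± 15.5 FPKM at PND1) and Gabpa (17.5 ± 6.91 FPKM at PND4 and 17.8 ± 4.99 FPKM at PND1; SD, n = 4 each).

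Promoter sequences are shown because the members are scattered over 17 chromosomes and the known regulators of such genes, NRF1, GABPA and YY1, bind short motifs near their starts. RefSeq windows of 250 bases before to 50 after the start (GRCm38.p6) were held for 68 of 79 members. On both strands, the NRF1 motif GCGCANGCG was found in 16 windows (23.5%, beside 17.1% of other tested genes and 7.03% of all genes with a window). The GABPA motif CCGGAAGT was found in 12 (17.6%, beside 10.4% and 4.31%), the YY1 motif AAGATGGCG in 8 (11.8%, beside 3.98% and 1.64%) and TCTCGCGA, part of a palindrome common in housekeeping promoters, in 1 (1.47%, beside 2.8% and 1.13%). Any of the 4 was found in 34 (50%, beside 30.5% and 12.7%). Matches that overlap each other were kept. A match is a description of these letters only, and no test of these shares was made.

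Upstream stretches follow for Mrpl45, whose ages did not overlap, Mrpl12, among the highest in level, Mrps22, for its link to the human ovary, and Mrps2 and Mrpl42, which had unadjusted p-values under 0.05. The stretch of Mrps30, the other such gene, overlaps an annotated exon of B430218F22Rik and is not shown. They lie at chr11:97315586-97315715 (plus strand), chr11:120484513-120484612 (plus), chr9:98601680-98601779 (minus), chr2:28467966-28468065 (plus) and chr10:95501950-95502049 (minus) on GRCm38.p6, from RefSeq, written from 5′ to 3′ along the gene. Capitals mark NRF1 matches in Mrpl45 and Mrpl12, on either strand, and the GABPA match in Mrps22. The stretches of Mrps2 and Mrpl42 held none of the 4 motifs, though the Mrpl42 window had a YY1 match after the start, outside the stretch shown, and that of Mrpl45 a further NRF1 match there.
Mrpl45: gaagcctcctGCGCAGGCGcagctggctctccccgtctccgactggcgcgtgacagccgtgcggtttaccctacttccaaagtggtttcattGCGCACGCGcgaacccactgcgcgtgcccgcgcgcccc
Mrpl12: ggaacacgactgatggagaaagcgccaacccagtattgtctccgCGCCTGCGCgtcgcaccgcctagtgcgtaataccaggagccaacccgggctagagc
Mrps22: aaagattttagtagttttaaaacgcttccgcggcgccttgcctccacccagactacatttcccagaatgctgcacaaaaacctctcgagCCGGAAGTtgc
Mrps2: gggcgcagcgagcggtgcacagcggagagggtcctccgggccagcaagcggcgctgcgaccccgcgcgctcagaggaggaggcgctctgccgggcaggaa
Mrpl42: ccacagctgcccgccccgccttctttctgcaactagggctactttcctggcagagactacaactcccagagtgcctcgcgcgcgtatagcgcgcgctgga

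Mrpl46 and Mrps11, a large-subunit and a small-subunit gene, lie head to head on chromosome 7 and share 173 exonic bases on opposite strands, and were named after their values were seen. Mrpl46, a mitochondria-specific protein, had 9.70, 13.3, 17.9 and 17.97 FPKM in the PND4 libraries, against 7.49, 16.1, 14.97 and 16.5 FPKM in the PND1 libraries (log2 difference 0.11 with SE 0.28, unadjusted p = 0.708, limma adjusted p = 0.958). Mrps11, counterpart of bacterial S11 at the mRNA exit side, had 9.93, 19.6, 11.3 and 12.97 FPKM in the PND4 libraries, against 9.90, 14.4, 12.4 and 12.2 FPKM in the PND1 libraries (log2 difference 0.095 with SE 0.23, unadjusted p = 0.694, limma adjusted p = 0.956). The ages overlapped in both. Divergent starts within 1000 bases, counted only where the genes do not overlap at their starts, were annotated for 20 members in GENCODE M21. Mrpl46 and Mrps11 are thus outside that count. Exonic bases are shared with another gene by 32 members, 27 of them with a gene on the opposite strand. 

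Spread between libraries of an age limited these comparisons. The coefficient of variation over the 4 libraries had a median of 22.9% at PND4 and 18.0% at PND1 over the 79 members. It ran from 3.48% (Mrps31) to 67.8% (Mrps36-ps1) at PND4 and from 2.80% (Mrpl38) to 56.9% (Mrps34) at PND1. For the 39 members in the middle range of level it was 23.7% at PND4 and 20.04% at PND1, beside 21.2% at PND4 and 20.8% at PND1 for 2841 other tested genes of that range. PND1 replicate 1 held the lowest value of the 8 libraries for 25 of 79 members. Without both libraries numbered 1, a setting chosen after seeing the data, the median log2 difference of the members was 0.11 and 0 members passed adjustment.

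Marker levels of other cell types stood beside these differences. The summed level of 10 stroma markers was 230.4 ± 28.01 FPKM at PND4 and 193 ± 10.9 FPKM at PND1. The highest of them, Lox, had 81.0 ± 19.1 FPKM at PND4 and 90.1 ± 9.62 FPKM at PND1. Their median level was 18.6 ± 1.48 FPKM at PND4 and 12.04 ± 2.75 FPKM at PND1, without overlap. Log2 differences were above 0 for 9 of the 10, all but Lox, beside 60.3% of all tested genes. Their median was 0.45, beside 0.078 for all tested genes. The summed level of 3 listed hemoglobin genes was lower at PND4 without overlap, 5.24 ± 4.62 FPKM at PND4 and 29.1 ± 14.2 FPKM at PND1 (SD, n = 4 each). Oocyte markers were highest in PND4 replicate 3 (321 FPKM). Of 5 listed immune markers the summed level was 9.53 ± 5.21 FPKM at PND4 and 10.8 ± 4.70 FPKM at PND1, and of the endothelial markers only Esam was listed. At an unadjusted p under 0.05, Dcn, Col1a1, Tcf21, Nr5a2, Padi6 and Zp3 were on the PND4 side and Figla, Dazl, Hba-a1, Hba-a2 and Hbb-bs on the PND1 side, and none passed adjustment. The part of other cell types in the members' differences was not tested. In bulk RNA, fewer cells of a type and less RNA per cell cannot be told apart.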

How the data were processed

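RNA-seq of granulosa cells gave 8 libraries, 4 per age, grouped by the age in the labels. Per the submitters' processing notes, Trim Galore trimmed the reads and HISAT2 aligned them, with GRCm38 as the build and no versions stated. The authors deposited FPKM values per gene and library, per the file headers, as a filtered table of 11783 rows. For the program behind the FPKM, its annotation, its use of strand and the filter, the sources used here give nothing. Per the file headers, another table that the authors deposited holds per gene a fold (a ratio), the log2 of it, and p-value and q-value columns, of which counts are quoted. The authors' FPKM table also holds a column with the sum of the 8 FPKM values per gene, recorded here as a score because it is no level of a library, and not used in any test.

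Values were taken as log2(FPKM + 1), on which a fold understates the change of low genes. The filter asked for 1 FPKM or more in 4 libraries or more, which 10756 genes passed and 1027 did not. The ages were compared as PND4 minus PND1 with limma 3.58.1 in R 4.3.3 (mean-dependent prior variance, no block), with Benjamini-Hochberg adjustment over all tested genes and a threshold of 0.05. The step was tested on simulated data. Low values were searched for whole multiples of 1 read. The best unit found per library placed 27.6% to 32.4% of them within 0.1 of a multiple, where 20% would for a fixed unit, so whole reads were not recovered and depth is unknown.

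The genes named were the 5 highest and 3 lowest in mean FPKM of each subunit, the 6 largest differences in each direction, members with an unadjusted p under 0.05, and a list of genes of known role. Of the related lists, the 2 highest in level and those with an unadjusted p under 0.05 were named. Of the markers, levels of single genes are given for Foxl2, Kitl, Krt18 and Krt8, those with such a p by name, and the rest as sums. The cytosolic ribosomal protein genes, taken by symbol, are outside that rule and given by counts. Members, lists and classes were chosen with earlier results of these data known. Mrps25 is not analysed here. Positions came from GENCODE M21, in which all 79 identifiers were found, and promoter windows from RefSeq. Motifs were searched in shortened forms, chosen after counts with longer forms had been seen. Alternatives covered the scaling, the filter, the pseudocount (0.1 and 5), a replicate block, the subunit assignment and leaving out libraries. Same-numbered libraries of the ages deviated together little, with correlations of -0.0088 to 0.12 across 10756 genes. Pairs of unlike number had -0.14 to 0.11, and the highest of all was that of the libraries numbered 4. Figures were drawn with matplotlib 3.10.9.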

Additional observations from a re-analysis of the deposited data

Results flagged for a closer look

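In 8 of 166 groups of 4 libraries checked (each member at each age, and the subunit ratios and sums), 1 library lay far from the other 3, its gap to the nearest exceeding Dixon's critical value as a share of the whole range. Chance flags about 1 in 20 groups, or 5%, and 4.82% were found. At PND4, replicate 1 was high for Mrpl16 (56.8 FPKM, the others 25.6 to 29.3) and low for Mrpl42 (33.1 FPKM, the others 47.1 to 48.1). PND4 replicate 3 was high for Mrpl14 (29.6 FPKM, the others 23.3 to 24.2) and low for Mrps26 (3.93 FPKM, the others 6.31 to 6.79). PND4 replicate 2 had the low ratio of summed Mrpl to summed Mrps FPKM, 2.21, where the others had 2.46 to 2.50. At PND1, replicate 1 was low for Mrps22 (28.1 FPKM, the others 39.7 to 41.1) and for Mrpl46 (7.49 FPKM, the others 14.97 to 16.5). PND1 replicate 3 was high for Mrpl34 (66.8 FPKM, the others 54.7 to 56.2).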

How the results depend on the processing

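The count of members past an adjusted p of 0.05 was 0 under every alternative run, and the median log2 difference of the members, of the Mrpl genes and of the Mrps genes stayed above 0. Leaving out each library in turn gave medians of 0.0915 to 0.1348 for the members, 0.1023 to 0.1514 for the Mrpl genes and 0.0589 to 0.1543 for the Mrps genes, a difference of the subunit ratio of -0.0408 to 0.0536, and counts of 0 for the members and 1 for all genes. Requiring at least 1 FPKM in all libraries left fewer genes tested, with 567 at an unadjusted p under 0.05 (limma). The count of all genes past the threshold was then 0, and why the 1 gene was no longer called was not examined. With the replicate number as a block, which does not pair the samples, 0 members and 1 gene passed, and 687 genes had an unadjusted p under 0.05, against 635 without it. Of 38 members named with a difference, 26 kept its sign whichever library was left out. Some signs turned. Mrps12 was -0.0714 with median-of-ratios, -0.0775 with upper-quartile and -0.0113 with nuclear-total scaling, and Mrps6 was -0.0141 and -0.0204 with the first 2 of these. Without both libraries numbered 1, Mrpl12 was 0.0471, Mrpl37 0.1169, Mrps16 0.2763, Mrps18b 0.0394 and Mrps34 0.2752. Leaving out 1 library turned the sign within these ranges: Mrpl11 -0.2525 to 0.0322, Mrpl12 -0.1517 to 0.0931, Mrpl37 -0.1689 to 0.0714, Mrpl44 -0.2301 to 0.1206, Mrpl46 -0.138 to 0.2815, Mrps11 -0.0908 to 0.2145, Mrps12 -0.2135 to 0.263, Mrps16 -0.2543 to 0.1572, Mrps17 -0.1935 to 0.1257, Mrps18b -0.1408 to 0.0679, Mrps34 -0.3798 to 0.1606 and Mrps36-ps1 -0.6048 to 0.1536. The cause was not tested. Depth is unknown.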
